A study of Mus musculus with 6 samples.

Results

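Glycolysis turns glucose into pyruvate and lactate, and the hypoxia response is the set of genes that a cell adjusts when oxygen is scarce. Described here are 35 genes of these systems, chosen by name among the 17854 genes of the expression table. They comprise 4 transporters of glucose and lactate, 16 glycolytic enzymes, 2 lactate dehydrogenases, 3 regulatory kinases, 5 genes of oxygen sensing and 5 targets of hypoxia signalling. The measurement was bulk RNA sequencing of 6 libraries, 3 from each of 2 groups of sorted Tomato+ cells, and each library is taken as a separate mouse. Tomato marks any cell whose lineage once expressed Cre from *Prrx1*, a gene of limb mesenchyme, so it reports descent and not a present cell type. The MSC-derived cells were sorted from digested knee cartilage of C57BL/6 male mice with osteoarthritis induced by cutting the anterior cruciate ligament. These hosts had received Tomato+ mesenchymal stromal cells (MSCs) from the inguinal white fat of *Prrx1-Cre; R26tdTomato* mice into the joint. The endogenous cells were Tomato+ articular cells of *Prrx1-Cre; R26tdTomato* mice matched for age and sex, and the labels give C57BL/6 males for both groups but no age. Host genotype and injection differ between the groups together with cell origin, and no surgery is stated for the endogenous group, so their parts cannot be told apart.

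In cartilage, which has no blood vessels, chondrocytes live at low oxygen and obtain most of their energy from glycolysis. The hypoxia-inducible factors HIF-1 and HIF-2 pair an alpha subunit, encoded by *Hif1a* or *Epas1*, with a constant beta subunit. When oxygen is present, prolyl hydroxylases mark the alpha subunit and the VHL protein directs its destruction, so that HIF activity is set largely at the level of protein, which RNA sequencing does not measure. HIF raises the transcription of glucose transporters, glycolytic enzymes and the mitochondrial and stress proteins *Bnip3*, *Higd1a* and *Ddit4*. Many glycolytic steps have several isoform genes, and cell types differ in which they use.

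Expected counts summed to between 22060628 and 24881796 per library, and 3 counts corresponded to between 0.121 and 0.136 CPM (counts scaled to a common library size), a floor that covers counting error only. Endogenous replicate 1 stood apart, with 3459 genes at 0 against 1338 and 1395 in the other endogenous libraries and 1932 to 1948 in the MSC-derived ones. Against the mean of endogenous replicates 2 and 3, its normalised level was 0.230 times as high for *Pfkfb4* and 1.96 times as high for *Ankrd37*. Markers of other cells moved with the groups. All 15 chondrocyte markers were lower in MSC-derived cells, where they summed to between 1011 and 1036 TPM (a level per transcript length, scaled to a common sum) against 43937 to 47047, so the label chondrocyte was not matched by high marker levels there. Of 10 osteoblast markers, 9 were lower (1353 to 1360 TPM against 60254 to 74805). All 12 leukocyte markers were higher in MSC-derived cells (5596 to 5604 TPM against 472 to 531), as were all 12 macrophage markers (25803 to 26577 TPM against 681 to 838). All 12 neutrophil markers were higher (147655 to 156344 TPM against 8278 to 11621), as were the 11 erythroid markers listed in the table (23992 to 25276 TPM against 5742 to 7814). Of 14 skeletal muscle markers, 6 were tested and 2 of them were lower, with *Myh1* and *Myh2* at 0 in MSC-derived cells and *Myh4* at 0 in endogenous cells. All 14 summed to 14.3 to 16.3 TPM against 55.2 to 65.0. *Tnni2* alone stood at 5.47 to 8.18 TPM against 45.3 to 51.7, so the difference in these sums rests mostly on it. The part of these markers in the results below was not tested, and in bulk RNA fewer cells of a type cannot be told apart from less RNA per cell.

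All 35 genes passed the expression filter. At an adjusted p of 0.05 or less (edgeR's quasi-likelihood test with Benjamini-Hochberg adjustment over 14289 genes), 7 were higher in MSC-derived cells and 19 were lower, and the other 9 did not pass. Over all genes tested, 61.6% passed, 31.3% as higher and 30.3% as lower, so the share of higher genes was below the background and the share of lower genes was above it. The groups did not overlap for 8 genes with higher and 21 genes with lower MSC-derived levels, where the background was 38.2% and 34.1%. The median log2 fold change (MSC-derived over endogenous) was -0.63 over the 35 genes and 0.046 over all genes tested. The genes that were higher were *Hk3*, *Slc2a3*, *Pfkfb4*, *Slc16a3*, *Gpi1*, *Gapdh* and *Aldoa*, all of them transporters, glycolytic enzymes or a regulatory kinase. Of the 10 genes of oxygen sensing and hypoxia targets, 9 were lower and the remaining 1, *Vhl*, did not pass.

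**Figure D1:**
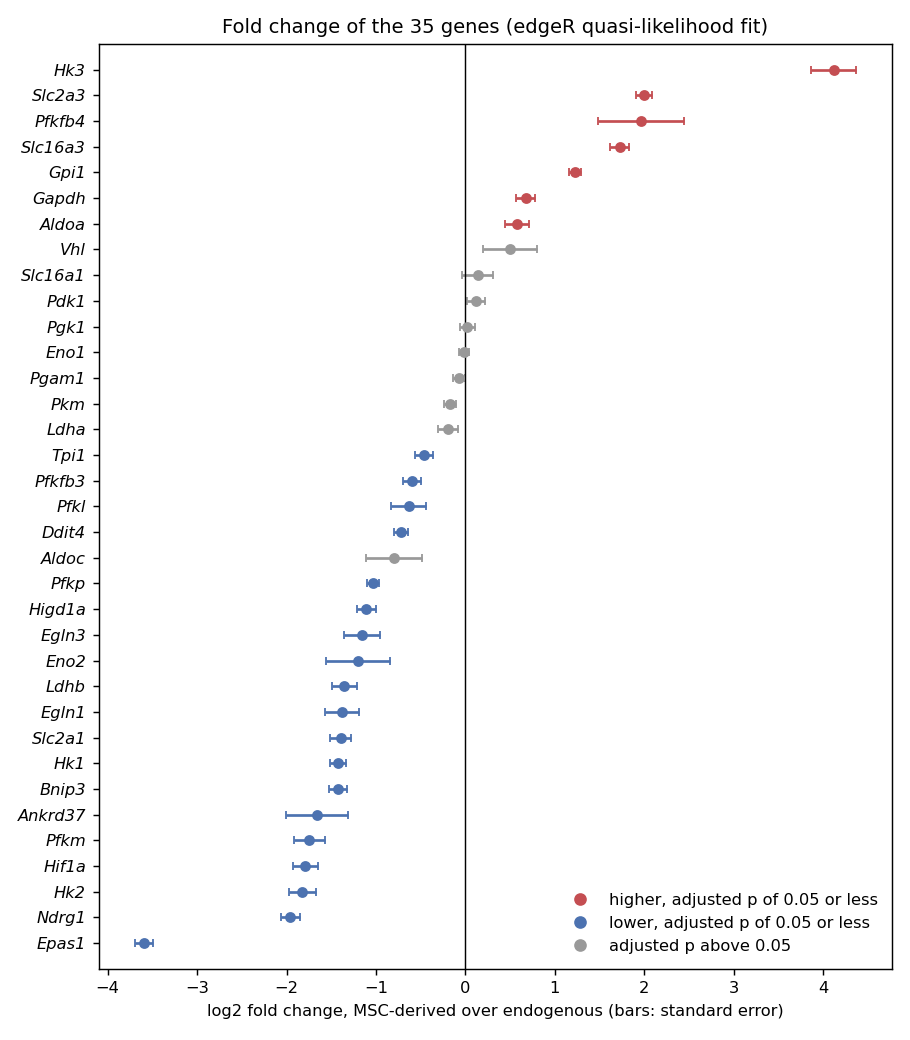
Fold change of the 35 genes. The x axis is the log2 fold change, MSC-derived over endogenous, with bars for the standard error (3 libraries per group), and color marks the 7 genes that were higher, the 19 that were lower and the 9 that did not pass. Hk3 lies farthest to the right at 4.12 and Epas1 farthest to the left at -3.60.

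HIF binds DNA at a short core that reads ACGTG or GCGTG, and the windows upstream of these genes were searched for both on either strand, with overlapping matches counted once. RefSeq windows (build GRCm38.p6, the 250 bases before each start) were matched by symbol for 32 of the 35 genes; *Slc2a3*, *Epas1* and *Ndrg1* were not matched. Of the 32, 28 held at least 1 match in any of their windows. By window, 36 of 45 (80%) held a match, against 38.6% of all 32851 RefSeq windows, and 21 (46.7%) held ACGTG, against 16.6%. These 45 windows were also richer in G and C, with a median of 62.0% against 52.4%, and both cores contain CG. The share with a match was 75% (6 of 8) for windows of genes that were higher, 81.8% (18 of 22) for genes that were lower and 80% (12 of 15) for genes that did not pass. Some windows of the same gene overlap, for *Aldoa*, *Eno1* and *Pfkm*, so a match there can count more than once in these shares. No test was run on these shares, and a match is a description and not a binding site. The 7 windows printed here are a choice by name of 4 isoform and transporter genes, 2 hypoxia targets and *Ldha*. All 7 hold a match, so they do not stand for the windows that held none. Each is given 5′ to 3′ on the gene's own strand with matches in capitals.
Hk2, upstream window at chr6:82774455-82774704 on the minus strand: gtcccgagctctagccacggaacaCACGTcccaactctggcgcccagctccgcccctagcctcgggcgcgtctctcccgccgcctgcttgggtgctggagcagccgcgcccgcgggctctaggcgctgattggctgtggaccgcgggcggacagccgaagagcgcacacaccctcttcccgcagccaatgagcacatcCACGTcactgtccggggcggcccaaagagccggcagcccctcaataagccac
Hk3, upstream window at chr13:55021386-55021635 on the minus strand: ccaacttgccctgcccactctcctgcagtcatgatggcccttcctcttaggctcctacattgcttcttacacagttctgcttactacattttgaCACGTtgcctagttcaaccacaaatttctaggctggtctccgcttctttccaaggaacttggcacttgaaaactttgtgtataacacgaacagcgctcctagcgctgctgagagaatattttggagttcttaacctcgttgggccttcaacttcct
Slc2a1, upstream window at chr4:119108495-119108744 on the plus strand: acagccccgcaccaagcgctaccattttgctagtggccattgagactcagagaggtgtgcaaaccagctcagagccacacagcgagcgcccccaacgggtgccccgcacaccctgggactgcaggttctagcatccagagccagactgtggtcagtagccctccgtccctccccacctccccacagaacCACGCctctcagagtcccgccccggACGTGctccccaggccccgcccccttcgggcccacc
Slc16a3, upstream window at chr11:120948817-120949066 on the plus strand: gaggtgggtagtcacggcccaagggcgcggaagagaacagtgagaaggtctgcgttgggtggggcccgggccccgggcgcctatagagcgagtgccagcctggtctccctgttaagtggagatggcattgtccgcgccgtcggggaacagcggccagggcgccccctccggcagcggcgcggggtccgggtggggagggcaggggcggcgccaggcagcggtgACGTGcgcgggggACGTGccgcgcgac
Bnip3, upstream window at chr7:138909507-138909756 on the minus strand: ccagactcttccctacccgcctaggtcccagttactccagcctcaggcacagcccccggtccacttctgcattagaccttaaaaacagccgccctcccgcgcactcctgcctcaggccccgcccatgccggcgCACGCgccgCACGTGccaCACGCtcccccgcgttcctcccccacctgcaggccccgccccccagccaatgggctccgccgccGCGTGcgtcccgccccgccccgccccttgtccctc
Ankrd37, upstream window at chr8:45999851-46000100 on the minus strand: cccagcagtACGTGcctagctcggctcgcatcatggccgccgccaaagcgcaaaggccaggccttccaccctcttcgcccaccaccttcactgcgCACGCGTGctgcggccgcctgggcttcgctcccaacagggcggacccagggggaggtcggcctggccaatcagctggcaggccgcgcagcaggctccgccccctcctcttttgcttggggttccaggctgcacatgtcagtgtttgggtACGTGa
Ldha, upstream window at chr7:46845554-46845803 on the plus strand: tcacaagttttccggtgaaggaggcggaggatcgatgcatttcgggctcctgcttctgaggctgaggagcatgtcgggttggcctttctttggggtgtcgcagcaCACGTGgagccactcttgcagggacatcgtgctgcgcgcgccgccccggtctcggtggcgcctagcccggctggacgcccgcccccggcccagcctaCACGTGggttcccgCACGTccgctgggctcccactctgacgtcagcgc
*Hk3*, with the largest increase of all 35 genes, held 1 match in a window of 47.2% G and C. *Bnip3*, which was lower, held 4 matches in a window of 72.4% G and C, and *Slc16a3*, which was higher, held 2 in a window of 73.6%. *Ldha*, which did not pass the test, held 3 matches in the printed window and 1 in its other window.

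Glucose enters the cell through facilitative transporters, and the 2 measured here moved in opposite directions. *Slc2a1* (GLUT1, the widespread basal transporter) stood at 54.1, 55.3 and 57.02 CPM, scaled with edgeR's TMM factors, in the 3 MSC-derived libraries and at 121, 161 and 156 in the endogenous ones. All endogenous values lay above all MSC-derived values (log2 fold change -1.40, SE 0.12, adjusted p = 4.1e-05). *Slc2a3* (GLUT3, the high-affinity transporter of neurons and blood cells) stood at 148, 150.3 and 156 CPM in MSC-derived cells against 34.3, 39.6 and 39.97 in endogenous cells. Here the MSC-derived libraries were all the higher ones (log2 fold change 1.997, SE 0.091, adjusted p = 1.29e-06). As a share of the TPM of both genes, a measure per transcript length, *Slc2a3* made up 63.1% ± 0.12 (SD, n = 3) in MSC-derived cells and 14.2% ± 1.00 in endogenous cells. Their summed level was 80.9 ± 1.49 TPM against 124 ± 8.46. The CPM values above sum in the opposite order, so the order of the sums depends on the scale. The exact two-sided permutation p for this difference in share was 0.1, the smallest that 3 against 3 libraries allow, and the same p held for every share given below unless another is stated.

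Lactate and pyruvate cross the membrane through monocarboxylate transporters. *Slc16a3* (MCT4, the exporter of strongly glycolytic cells) measured 445, 419.8 and 459.5 CPM in MSC-derived and 116, 137 and 148 in endogenous libraries. It was higher in all 3 MSC-derived libraries (log2 fold change 1.72, SE 0.10, adjusted p = 4.7e-06). *Slc16a1* (MCT1) measured 26.97, 25.1 and 27.7 against 18.5, 26.3 and 27.7 CPM, the groups overlapped and the test was not passed (adjusted p = 0.506). *Slc16a3* was the larger of the pair in both groups, at 97.0% ± 0.018 of their TPM in MSC-derived and 91.6% ± 0.78 in endogenous cells.

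Hexokinases add phosphate to glucose in the first step, and their shares differed most among the 10 families compared. *Hk3*, the hexokinase typical of myeloid blood cells, measured 147, 145 and 148 CPM in MSC-derived cells and 5.07, 10.4 and 9.75 in endogenous cells. All MSC-derived values lay far above the endogenous ones (log2 fold change 4.12, SE 0.25, adjusted p = 6.19e-06), a 17.4-fold difference. *Hk2*, the inducible enzyme of muscle and tumors and a known HIF target, measured 27.2, 26.95 and 25.3 against 115, 85.6 and 79.8 CPM. Every endogenous library was higher (log2 fold change -1.82, SE 0.15, adjusted p = 3.26e-05). *Hk1*, the housekeeping enzyme bound to mitochondria, measured 55.8, 50.9 and 52.7 against 136, 155 and 137 CPM and was also lower in all MSC-derived libraries (log2 fold change -1.42, SE 0.089, adjusted p = 6.53e-06). By TPM, *Hk3* made up 71.97% ± 0.86 of the 3 hexokinases in MSC-derived cells and 4.89% ± 1.77 in endogenous cells. *Hk1* made up 20.8% ± 0.89 against 65.0% ± 3.83, and *Hk2* 7.21% ± 0.30 against 30.1% ± 5.57. The summed level of the 3 genes was 88.5 ± 1.60 TPM in MSC-derived and 102 ± 10.99 TPM in endogenous cells. *Hk3* was at 63.7 ± 0.39 TPM in MSC-derived cells, in libraries in which all 12 macrophage and all 12 neutrophil markers were higher as well.

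**Figure D2:**
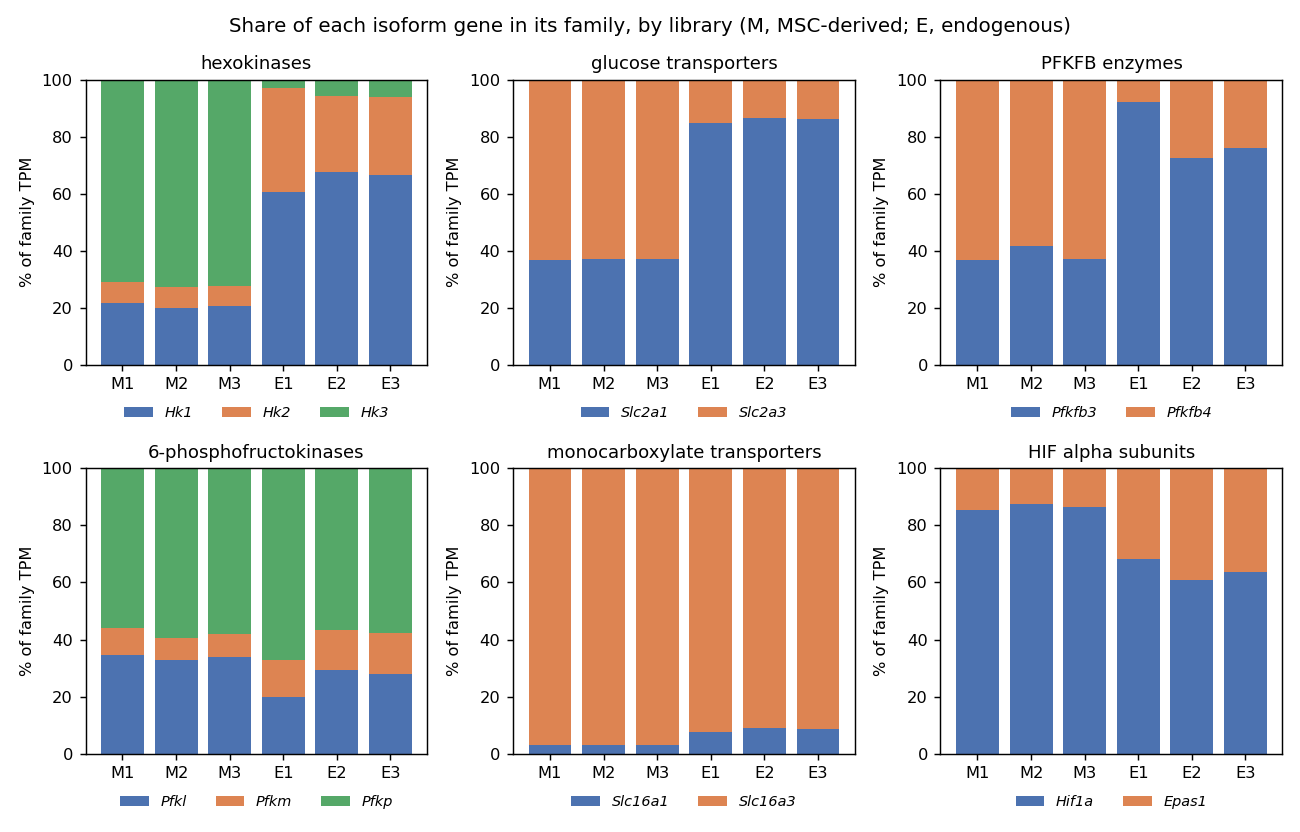
Share of each isoform gene in its family, by library. The y axis is the percent of the family's summed TPM, with 3 MSC-derived libraries (M1 to M3) and 3 endogenous libraries (E1 to E3). Hk3, Slc2a3 and Pfkfb4 fill most of the bar in the MSC-derived libraries only, while Pfkp takes 56.1% to 67.3% of its family in all 6 libraries.

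The next step, from glucose 6-phosphate to fructose 6-phosphate, is catalysed by the enzyme of *Gpi1*. It measured 627, 592 and 605 CPM in MSC-derived and 261, 272 and 246 in endogenous libraries. The groups were far apart and the replicates close together (log2 fold change 1.23, SE 0.067, adjusted p = 3.31e-06).

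Phosphofructokinase, the committed step, moved the other way in all 3 of its genes. *Pfkp*, the platelet type, measured 70.1, 71.4 and 70.97 CPM in MSC-derived cells against 144, 146 and 144 in endogenous cells (log2 fold change -1.03, SE 0.068, adjusted p = 8.64e-06). *Pfkm*, the muscle type, measured 9.89, 7.88 and 8.09 against 24.01, 31.7 and 30.97 and did not overlap between groups (log2 fold change -1.74, SE 0.17, adjusted p = 8.49e-05). *Pfkl*, the liver type, measured 48.4, 44.96 and 46.6 against 49.9, 87.02 and 80.2, where endogenous replicate 1 lay just above the MSC-derived libraries (log2 fold change -0.63, SE 0.20, adjusted p = 0.026). The call of *Pfkl* was lost on leaving out any 1 of the 3 MSC-derived libraries or endogenous replicate 2 or 3, with an adjusted p of up to 0.0925 without MSC-derived replicate 2, and without endogenous replicate 1 its log2 fold change was -0.89 (adjusted p = 2.06e-10). The 3 genes together stood at 49.7 ± 0.85 TPM in MSC-derived and 137 ± 2.33 TPM in endogenous cells. Unlike the hexokinases, the largest share did not shift beyond the spread, with *Pfkp* at 57.9% ± 1.65 against 60.6% ± 5.80 (exact permutation p = 0.7). *Pfkl* made up 33.8% ± 0.80 against 25.7% ± 4.98 and *Pfkm* 8.32% ± 0.92 against 13.7% ± 0.85.

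The kinases that make fructose 2,6-bisphosphate, the strongest activator of phosphofructokinase, also moved in opposite directions. *Pfkfb3*, the form with high kinase activity, measured 51.1, 58.05 and 51.1 CPM in MSC-derived and 74.8, 82.1 and 85.3 in endogenous libraries and was lower in every MSC-derived library (log2 fold change -0.60, SE 0.097, adjusted p = 0.00126). *Pfkfb4* measured 61.8, 56.8 and 61.1 against 4.76, 22.5 and 18.8 and was higher in every MSC-derived library (log2 fold change 1.96, SE 0.48, adjusted p = 0.00891). The endogenous values of *Pfkfb4* were uneven, with replicate 1 far below the others, and its log2 fold change was 1.48 without that library. *Pfkfb4* made up 61.5% ± 2.70 of the TPM of both genes in MSC-derived and 19.7% ± 10.5 in endogenous cells, at summed levels of 39.2 ± 0.42 and 38.4 ± 4.01 TPM. These TPM sums overlapped between groups, while the CPM values above sum to more in every MSC-derived library than in any endogenous one.

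The enzymes from aldolase to pyruvate kinase include the most abundant of the 35 genes, *Gapdh*, at 2382 ± 73.1 TPM in MSC-derived and 2001 ± 173 TPM in endogenous cells. This dehydrogenase of the middle of the pathway measured 2252, 2127 and 2246 CPM in MSC-derived and 1154, 1519.7 and 1466 in endogenous libraries (log2 fold change 0.68, SE 0.11, adjusted p = 0.00102). *Aldoa*, the main aldolase, measured 914, 872 and 905 against 477, 688 and 638 (log2 fold change 0.58, SE 0.13, adjusted p = 0.00624). Both were higher in every MSC-derived library, and endogenous replicate 1 was the lowest library for both. *Tpi1*, triosephosphate isomerase, was lower, at 137, 132 and 136 against 162, 194 and 202 CPM (log2 fold change -0.46, SE 0.096, adjusted p = 0.00426). *Pgk1*, *Pgam1* and *Eno1* did not pass, with log2 fold changes of 0.024, -0.071 and -0.017, and all 3 overlapped between groups. *Pkm*, pyruvate kinase of most tissues, measured 1033, 1016 and 1028 against 1061, 1219 and 1182, a separation without overlap that did not pass (log2 fold change -0.17, adjusted p = 0.0637). Its counts are for the whole gene and do not separate the M1 and M2 transcripts. Without endogenous replicate 1, *Pkm* (log2 fold change -0.28, adjusted p = 8.96e-07), *Eno1* (-0.10, adjusted p = 0.0252) and *Pgam1* (-0.15, adjusted p = 0.00811) passed as lower.

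The minor isoforms of these steps were rare. *Eno2*, the enolase of neurons, measured 1.68, 2.63 and 3.80 against 6.39, 6.63 and 5.61 CPM and was lower (log2 fold change -1.20, SE 0.35, adjusted p = 0.0205), but its adjusted p was above 0.05 without MSC-derived replicate 1 (0.0602), without MSC-derived replicate 2 (0.0715) or without endogenous replicate 2 (0.0552). *Aldoc* measured 2.03, 2.26 and 2.49 against 3.83, 3.63 and 4.35 CPM, with no overlap, and did not pass (adjusted p = 0.0566), while without endogenous replicate 1 it did (adjusted p = 0.00828). *Aldoa* held 99.9% ± 0.014 and 99.6% ± 0.073 of the aldolase TPM in MSC-derived and endogenous cells, and *Eno1* held 99.8% ± 0.080 and 99.5% ± 0.046 of the enolase TPM.

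The size of the differences depended on the scale, because ratios of TPM lay below the fitted fold changes, with a median difference of -0.442 log2 units over genes with a mean of at least 1 TPM. On TMM-normalised counts the ratio of group means, MSC-derived over endogenous, was 1.02 for phosphoglycerate kinase, 0.984 for enolase and 0.889 for pyruvate kinase, and on TPM it was 0.750, 0.726 and 0.655, so of the steps only phosphoglycerate kinase changed sides of 1. Phosphoglucose isomerase (2.34 and 1.72) was above 1 on both scales, and phosphofructokinase (0.513 and 0.364) was below 1 on both. With limma on log2(TPM + 1), which moved the median of all genes by -0.40, *Gapdh* (log2 fold change 0.25, adjusted p = 0.0772) and *Aldoa* (0.14, adjusted p = 0.346) no longer passed. On that scale *Ldha*, *Pkm*, *Pgam1*, *Eno1* and *Pgk1* passed as lower, with log2 fold changes of -0.62, -0.61, -0.51, -0.46 and -0.41. Summed over the 18 enzyme genes from hexokinase to lactate dehydrogenase, the level was 6014 to 6270 TPM in MSC-derived and 6599 to 7086 TPM in endogenous libraries, but 7072 to 7346 against 5550 to 6645 TMM-normalised CPM. The groups were separate on both scales, in opposite order.

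**Figure D3:**
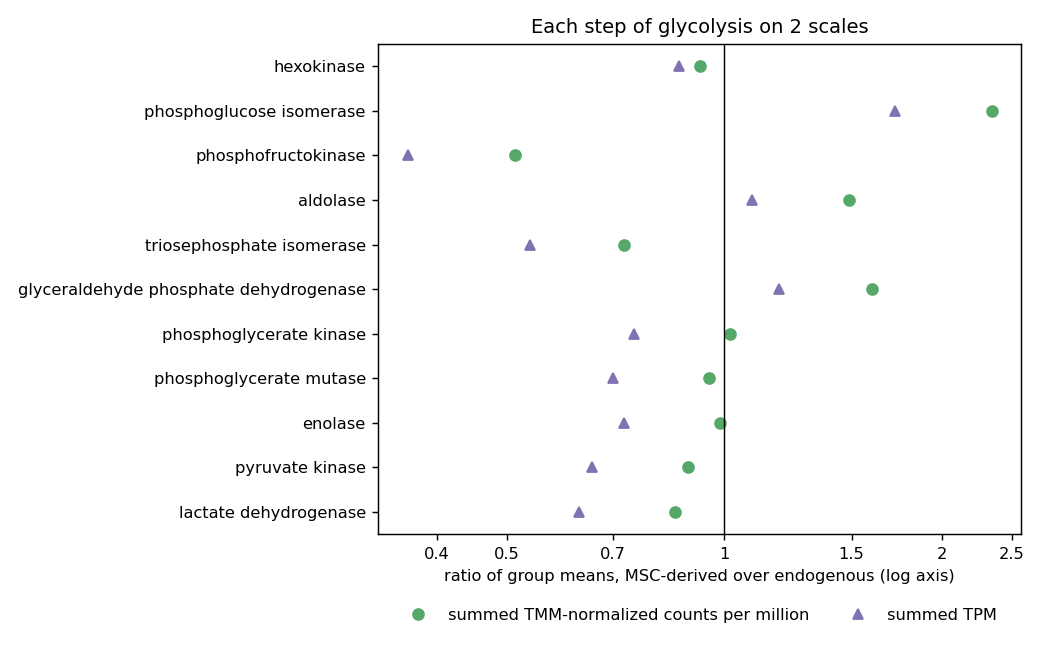
Each step of glycolysis on 2 scales. The x axis, a log axis, is the ratio of group means (MSC-derived over endogenous, 3 libraries each) of the level summed over the genes of a step, with circles for TMM-normalised CPM and triangles for TPM. Every triangle lies to the left of its circle, and phosphoglycerate kinase changes sides of 1, with 1.02 by counts and 0.750 by TPM.

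The lactate dehydrogenases interconvert pyruvate and lactate. *Ldha*, the muscle type and a classic HIF target, measured 753, 753 and 752 CPM in MSC-derived libraries and 717, 945 and 921 in endogenous ones. Endogenous replicate 1 lay below the MSC-derived libraries and the other endogenous replicates above them, and the test was not passed (log2 fold change -0.19, adjusted p = 0.153). Without endogenous replicate 1, *Ldha* passed as lower (-0.36, adjusted p = 2.78e-08). *Ldhb*, the heart type, measured 14.8, 15.1 and 14.9 against 43.8, 33.4 and 37.2 and was lower in every MSC-derived library (log2 fold change -1.35, SE 0.14, adjusted p = 8.86e-05). *Ldha* made up 97.5% ± 0.028 of their TPM in MSC-derived and 94.4% ± 1.56 in endogenous cells. *Pdk1* encodes a HIF-induced kinase that inhibits pyruvate dehydrogenase. It measured 34.1, 38.3 and 35.6 against 34.7, 32.9 and 31.8 CPM, with overlap, and did not pass (adjusted p = 0.345).

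Genes of oxygen sensing were lower in MSC-derived cells in 4 of 5 cases, beside 30.3% of all genes tested. *Epas1*, which encodes HIF-2 alpha, measured 17.4, 15.1 and 15.5 CPM in MSC-derived cells against 199.7, 201 and 179 in endogenous cells. The difference was 12.1-fold (log2 fold change -3.60, SE 0.10, adjusted p = 1.48e-07). *Hif1a*, which encodes HIF-1 alpha, measured 81.9, 85.4 and 80.7 against 353, 252 and 252 and was lower in all MSC-derived libraries (log2 fold change -1.79, SE 0.14, adjusted p = 2.45e-05). *Hif1a* was the more abundant of the pair by TPM in both groups, at 86.5% ± 1.09 in MSC-derived and 64.4% ± 3.73 in endogenous cells, while their sum was 29.5 ± 0.81 against 187 ± 41.0 TPM.

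The prolyl hydroxylases that tag HIF were lower as well. *Egln1* (PHD2, the main oxygen sensor) measured 9.23, 10.01 and 7.70 against 19.03, 23.4 and 27.7 CPM, without overlap (log2 fold change -1.38, SE 0.19, adjusted p = 0.000544). *Egln3* (PHD3, itself induced by HIF) measured 9.38, 7.51 and 6.86 against 20.5, 15.1 and 17.3, also without overlap (log2 fold change -1.16, SE 0.20, adjusted p = 0.00161). Their balance did not differ beyond the spread, with *Egln1* at 46.7% ± 3.77 of their TPM in MSC-derived and 50.02% ± 7.45 in endogenous cells (exact permutation p = 0.6). *Vhl*, the ubiquitin ligase subunit that recognises hydroxylated HIF, measured 34.9, 32.3 and 32.5 against 12.4, 28.9 and 29.2 CPM. The groups did not overlap, but endogenous replicate 1 lay far below the other 2, and the test was not passed (log2 fold change 0.50, SE 0.30, adjusted p = 0.189).

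All 5 hypoxia targets were lower in MSC-derived cells, and none overlapped between groups. Of all genes tested, 30.3% were lower, and 34.1% had lower MSC-derived levels without overlap. *Ndrg1*, a stress and differentiation gene, measured 25.5, 26.99 and 25.5 CPM in MSC-derived and 89.3, 110.1 and 104 in endogenous libraries (log2 fold change -1.96, SE 0.11, adjusted p = 3.31e-06). *Bnip3*, a mitochondrial protein that starts mitophagy, measured 41.2, 44.6 and 44.99 against 128, 108 and 114 (log2 fold change -1.42, SE 0.096, adjusted p = 9.69e-06). *Higd1a*, which binds the respiratory chain, measured 50.4, 50.3 and 50.02 against 94.6, 109 and 121 (log2 fold change -1.11, SE 0.11, adjusted p = 6.98e-05). The replicates of these 3 genes lay close together in both groups. *Ankrd37*, a small ankyrin protein, was rare, at 2.78, 2.38 and 3.15 against 13.04, 6.63 and 6.65 CPM, with endogenous replicate 1 the highest (log2 fold change -1.66, SE 0.35, adjusted p = 0.00436). Its log2 fold change was -1.32 without that library. *Ddit4* (REDD1, an inhibitor of mTORC1) measured 116, 118 and 118 against 178, 199.6 and 203 and had the smallest difference of the 5 (log2 fold change -0.72, SE 0.078, adjusted p = 0.000137). The windows upstream of *Bnip3* and *Ankrd37*, printed above, held 4 and 3 matches to the HIF core. Those of *Ddit4* and *Higd1a*, not printed, held 2 and 1, and *Ndrg1* had no matched window.

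**Figure D4:**
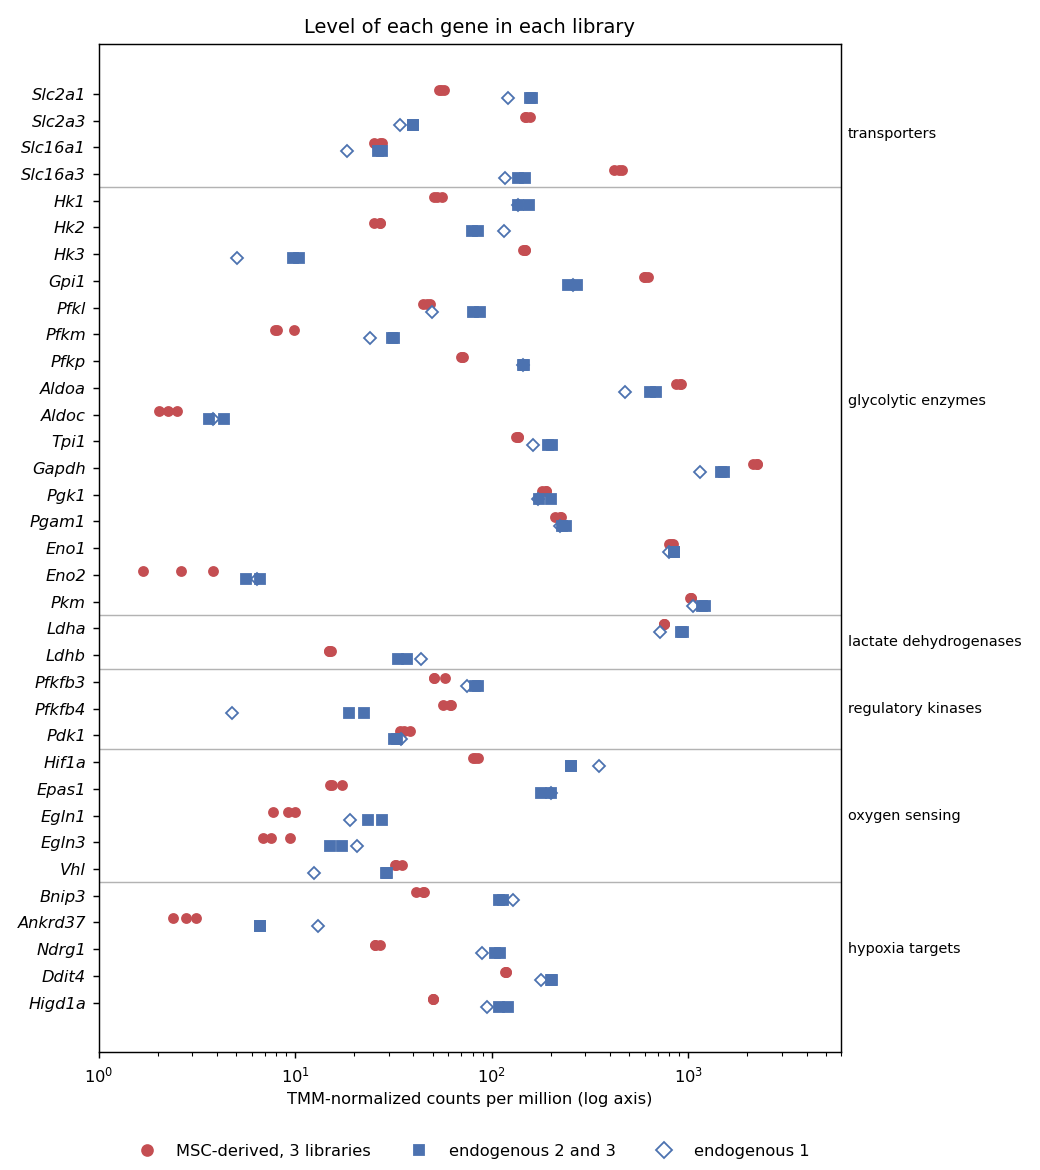
Level of each gene in each library. The x axis, a log axis, is TMM-normalised CPM, with red circles for the 3 MSC-derived libraries, blue squares for endogenous replicates 2 and 3 and an open diamond for endogenous replicate 1, and the genes are ordered by role. The groups stand apart for all 5 hypoxia targets, beside 34.1% of all genes tested that did so with lower MSC-derived levels. Endogenous replicate 1 lies away from its group for Pfkfb4, Vhl and Ankrd37.

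Further genes of the same systems were taken from lists of other names. Of 20 tested genes of other glycolysis and lactate functions, 10 were higher and 4 lower, beside 31.3% and 30.3% of all genes tested. These counts and those of the lists below were not repeated on the TPM scale. *Gpd1*, which makes glycerol 3-phosphate, measured 384, 399 and 378 CPM in MSC-derived and 0.132, 2.56 and 2.80 in endogenous libraries (log2 fold change 7.71, SE 0.56, adjusted p = 1.5e-05), where endogenous replicate 1 held 3 counts. *Slc16a7* (MCT2) was higher (log2 fold change 3.37, SE 0.15, adjusted p = 9.88e-07), while *Pfkfb2*, another PFKFB enzyme, was lower (log2 fold change -0.75, SE 0.19, adjusted p = 0.0108). *Bsg* (basigin), the chaperone that carries MCT1 and MCT4 to the membrane, was lower at 373, 376 and 378 against 511, 622 and 602 CPM (log2 fold change -0.62, SE 0.085, adjusted p = 0.000495). Of its partners, *Slc16a3* was higher and *Slc16a1* did not pass.

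Of 11 further oxygen-sensing genes tested, 2 were higher and 3 lower, no larger a share in either direction than the 31.3% and 30.3% of all genes. *Siah2*, a ligase that degrades prolyl hydroxylases, was lower (log2 fold change -1.88, SE 0.12, adjusted p = 6.85e-06), as was *Arnt*, the HIF beta subunit (log2 fold change -0.41, SE 0.14, adjusted p = 0.0326). *Rbx1* (log2 fold change 0.62, SE 0.1, adjusted p = 0.00115) and *Elob* (log2 fold change 0.36, SE 0.12, adjusted p = 0.0288), parts of the VHL ligase, were higher. Of 28 other HIF targets, 10 were higher and 16 lower, so the share of higher genes was near the 31.3% of all genes and the share of lower genes was above the 30.3%. Whether this list differs from the 5 hypoxia targets was not tested. *Hmox1*, haem oxygenase 1, which is also induced by haem and oxidants, measured 5475, 5140.0 and 5216 CPM in MSC-derived against 102, 147 and 137 in endogenous libraries (log2 fold change 5.36, SE 0.15, adjusted p = 1.59e-07). *Ppfia4*, a liprin, was also higher (log2 fold change 3.56, SE 0.20, adjusted p = 4e-06). *Car12*, a carbonic anhydrase, measured 0.977, 0.574 and 0.481 against 106, 96.8 and 107 (log2 fold change -7.23, SE 0.22, adjusted p = 1.97e-07), and *Stc2*, stanniocalcin 2, measured 0.235, 0.369 and 1.27 against 29.1, 34.1 and 29.7 (log2 fold change -5.65, SE 0.50, adjusted p = 4.41e-05). The sums of this list were 6200 to 6550 TPM in MSC-derived and 3611 to 3822 TPM in endogenous libraries. *Hmox1* alone stood at 5080, 4766 and 4775 TPM in MSC-derived and at 140, 176 and 164 TPM in endogenous libraries. The higher MSC-derived sum rests on this gene and does not describe the list as a whole.

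The expected counts of 8 of the 35 genes were not whole in at least 1 library (tolerance 0.005 counts), which shows that the estimation divided reads between genes: *Gpi1*, *Pfkp*, *Pfkfb4*, *Aldoa*, *Gapdh*, *Eno1*, *Slc16a3* and *Pdk1*. Their values, among them those of 5 of the 7 genes that were higher, carry that uncertainty.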

How the data were processed

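Bulk RNA of 6 libraries of sorted Tomato+ cells was sequenced. Per the submitters' processing notes, Bowtie2 2.2.5 and RSEM 1.2.12 were used with mouse build mm9. The study's methods give other versions of both programs, and they also name SOAPnuke and HISAT2. For each gene the authors deposited an expected count from RSEM without normalization. The authors also deposited TPM and FPKM, which divide by transcript length and library size. A further deposited signal, a scaled count, was not tested. Columns were mapped to samples by name (24 used), and 8 columns of group means were not used. No molecular identifiers were stated, so floors cover counting error only.

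Expected counts were rounded (20.6% of values changed) and tested with edgeR 4.0.16 in R 4.3.3, with TMM, filterByExpr, glmQLFit and glmQLFTest, no block, and Benjamini-Hochberg adjustment over 14289 genes at 0.05. Samples were grouped by their titles. Levels are TMM-normalised CPM, and levels of different genes and isoform shares are in TPM, given as mean ± SD over 3 libraries. Shares were compared with exact two-sided permutation tests. Over the 35 genes the lengths implied by counts and FPKM differed between groups by a factor of 0.953 to 1.03. All 35 genes are named, and of each further list the 2 largest increases and 2 largest decreases with an adjusted p of 0.05 or less and a mean log2 CPM of at least 3. The genes and lists were chosen with earlier results of these data known. Upstream windows are from RefSeq (GRCm38.p6), a build other than that of the files, which hold no coordinates.

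On simulated counts of 14289 genes for this comparison with 200 changed, the fit recovered 45% of 2-fold and 82% of 4-fold changes, with the right sign in 100% and 5.22% false calls, and it made 0 calls where nothing was changed. In the data 61.6% of genes passed, a far larger share than was changed in the simulation. The adjusted threshold depends on that share, so these rates are not those of the data. Alternatives were DESeq2 1.42.0, other normalizations and filters, each library left out, a block of the replicate number, limma 3.58.1 on log2(TPM + 1) and on log2(FPKM + 1) or log2(FPKM + 0.1), and other thresholds. Replicate numbers come from the sample titles, and same-numbered libraries are different mice. The p-values measure only the spread between these libraries. Figures were drawn with matplotlib 3.10.9.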

Additional observations from a re-analysis of the deposited data

How the results depend on the processing

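Across 17 alternative fits the 35 genes gave 595 values, of which 545 kept their direction and side of the threshold, 14 lost and 18 gained a call and 18 changed sign; 22 genes kept both in every fit. The cause of the changes was not tested. No gene that passed in the main test changed sign. Pgk1 changed sign to -0.0053 (RLE), -0.067 (upper quartile), -0.017 (TMM without the 50 genes with the most counts), -0.00083 (DESeq2) and -0.41 (limma on log2(TPM + 1)). Pgam1 changed to 0.046 (library totals), 0.049 (log2(FPKM + 1)) and 0.050 (log2(FPKM + 0.1)), and Eno1 to 0.10 in these 3 fits. On log2(TPM + 1), Slc16a1 was at -0.25 and Pdk1 at -0.30. With 1 library left out, Pgk1 lay between -0.072 and 0.10, Eno1 between -0.10 and 0.0099 and Slc16a1 between -0.075 and 0.25. At an adjusted p of 0.001 or less, 4 of the 35 genes were higher and 13 lower, against 2134 and 2380 of all genes, and 2756 of all genes were higher by a log2 fold change of at least 1. With 1 library left out the 35 genes gave 7 higher in each case and 17 to 24 lower, the 24 without endogenous replicate 1. Genes between pyruvate and acetyl-CoA that were lower numbered 1 with library totals, 4 with DESeq2 and 1 to 5 with 1 library left out, with 5 without endogenous replicate 1 and 1 without MSC-derived replicate 1 or 2. Pentose phosphate genes that were lower numbered 0 to 1, with 1 without endogenous replicate 1. Further oxygen-sensing genes that were higher numbered 1 to 3, with 1 when any MSC-derived replicate or endogenous replicate 3 was left out. With limma on log2(TPM + 1), 34.4% of all calls were higher, against 50.8% in the main test, and 5 of the 35 genes were higher and 25 lower. Counts of the further lists were not repeated on TPM or FPKM. With the replicate block, 7 of the 35 genes were higher and 19 lower, and 4103 and 3920 of all genes; correlations of deviations between libraries with the same number were 0.0129, 0.00221 and 0.0178, so the numbers do not pair the libraries. Isoform shares from counts in place of TPM kept their direction in all 10 families. In the simulation, which changed a far smaller share of genes than passed in the data, a 2-fold change could go uncalled. Levels near the floor, as for Gpd1 in endogenous replicate 1, rest on few counts.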

Other observations

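Neighbouring pathways that draw on the same sugars and on pyruvate were counted in the same fit, and the causes of these differences were not tested. Of 10 genes of the pentose phosphate pathway, which supplies NADPH and ribose, 8 were higher in MSC-derived cells and 0 were lower by edgeR's quasi-likelihood test, against 31.3% and 30.3% of all genes. *G6pdx*, the first and limiting dehydrogenase, measured 206, 197 and 212 CPM in MSC-derived and 32.6, 36.9 and 35.6 in endogenous libraries (log2 fold change 2.55, SE 0.084, adjusted p = 2.83e-07). *Taldo1*, transaldolase, measured 465, 478 and 494 against 118, 114 and 119.6 (log2 fold change 2.03, SE 0.065, adjusted p = 2.54e-07). Neither gene overlapped between groups, and the list summed to 1301 to 1339 TPM in MSC-derived and 535 to 568 TPM in endogenous libraries. The neutrophil and macrophage markers were higher in the same MSC-derived libraries.

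Of 17 genes of the tricarboxylic acid cycle, 13 were higher in MSC-derived cells and 0 were lower by the same test. The shares over all genes were 31.3% and 30.3%. Neither list held a lower gene at an unadjusted p under 0.05 or by DESeq2. *Sdhc*, a membrane subunit of succinate dehydrogenase, measured 76.8, 76.1 and 76.9 CPM in MSC-derived and 26.5, 32.1 and 26.3 in endogenous libraries (log2 fold change 1.44, SE 0.11, adjusted p = 1.72e-05). *Idh3g*, a subunit of isocitrate dehydrogenase, measured 129, 132 and 127 against 38.6, 66.2 and 58.1 (log2 fold change 1.25, SE 0.19, adjusted p = 0.000757). Of 13 genes between pyruvate and acetyl-CoA, 2 were higher and 2 lower, both shares below those of all genes. The higher ones were the pyruvate carriers *Mpc1* (log2 fold change 0.70, SE 0.11, adjusted p = 0.00127) and *Mpc2* (log2 fold change 0.64, SE 0.15, adjusted p = 0.00761), and the lower ones were *Pdha1*, a subunit of pyruvate dehydrogenase (log2 fold change -0.32, SE 0.09, adjusted p = 0.0176), and *Pdk4*, a kinase that inhibits that enzyme (log2 fold change -5.90, SE 0.21, adjusted p = 4.09e-07). *Pdk4* measured 1.17, 0.861 and 0.743 CPM in MSC-derived and 63.7, 51.8 and 51.6 in endogenous libraries, without overlap, while its relative *Pdk1* did not pass.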
